A study of Mus musculus with 12 samples.

Results

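Thy1 (ENSMUSG00000032011) encodes Thy-1, also called CD90, the surface antigen by which retinal ganglion cells (RGCs) were captured on magnetic beads before their RNA was sequenced. It is 1 of the 38720 genes listed in both deposited tables, and it was chosen by its name, as the bead antigen, and for its measured levels in the cells that the beads left behind in each genotype. All of its own levels and ratios are therefore given as a description, without a test. The mice were C57/BL6 pups at postnatal day 0 (P0). The mKO pups carried Math5Cre+;Ezh2f/f, in which Cre stands in the Math5 locus and loxP sites flank exons 16 to 19 of Ezh2, which encode the SET domain, and the control pups were wild type (WT). Dissociated retinas of each genotype were separated into RGCs and the remaining cells (non-RGCs), with 3 libraries per genotype and fraction, made for RGCs from independent RNA extractions. Math5 is active in progenitors that give rise to RGCs and to some other retinal neurons, so the deletion covers neither all cells of the RGC fraction nor RGCs alone. The labels do not say how many pups gave each library, and p-values measure the spread between these libraries.

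Thy-1 is a small glycoprotein of the immunoglobulin superfamily, held on the outer face of the cell membrane by a glycosylphosphatidylinositol (GPI) anchor. It sits in lipid rafts, where Src-family kinases such as Fyn lie on the inner face, and integrins and syndecan-4 on other cells bind it. In the retina it is the classic surface marker of RGCs, and elsewhere it is found on other neurons, T cells, fibroblasts and some endothelial cells. It rises as neurons mature and is lowered in RGCs under injury.

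The deposited group means were resolved into the reads of each library, 7139633 to 13014004 reads, and size factors over all 12 libraries (joint size factors) put both fractions on one scale. Because no replicate number could be tied to a recovered library, the libraries of a group are lettered A to C by falling depth. Libraries C of WT RGCs, WT non-RGCs and mKO non-RGCs stood apart from the other libraries of their groups (median squared difference over counting variance 4.34 to 9.23 in pairs with C, against 0.865 to 2.92 in the pairs of A with B and 0.455 from counting alone). The summed level of 13 progenitor and cycling genes was 28568 normalized reads in WT RGC library C against 18095 and 19254 in the others. Ezh2 itself was at 1187 to 1604 normalized reads in WT RGCs and 1359 to 1468 in mKO RGCs, and at 1769 to 2227 and 2007 to 2609 in the non-RGCs, with overlapping groups in both fractions. The loxP sites remove 3' exons only, so the count over the whole gene does not check the deletion. For that the paper reports strongly lowered Ezh2 in P0 mKO RGCs by qPCR and by Western blot.

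Thy1 lies on mouse chromosome 9 (GRCm38, chr9:44043384-44048579, plus strand). Its reference transcript in GENCODE M21 has 4 exons and 1735 bases, of which 118 are 5′ UTR, 489 coding with the stop codon and 1128 3′ UTR. The coding sequence is split over 3 exons at chr9:44045982-44046018, chr9:44046614-44046952 and chr9:44047339-44047451. The first and the last of these stretches are shown because they carry the start of the secretory signal and the hydrophobic tail that is exchanged for the GPI anchor, the parts that bring the antigen to the cell surface where the beads bound it. Reads were counted over the whole gene and not by exon. The start codon and the stop codon are in capitals.
Thy1 first coding exon: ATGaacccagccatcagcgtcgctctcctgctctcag
Thy1 last coding exon: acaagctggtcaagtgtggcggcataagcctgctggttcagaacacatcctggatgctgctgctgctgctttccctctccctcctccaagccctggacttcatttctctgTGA
The GC content of the coding sequence is 55.4%, and that of all 2995 annotated exon bases of Thy1 is 55.1%.

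Thy1 was high in every RGC library and scarce in every non-RGC library, and the non-RGCs of the 2 genotypes did not overlap. In WT RGCs it had 2362, 2320 and 1892 reads in libraries A, B and C, which is 2388, 2529 and 2110 normalized reads. In mKO RGCs it had 1633, 1547 and 1511 reads, or 1430, 1418 and 1401 normalized reads. All 3 mKO RGC libraries were below all 3 WT RGC libraries. In WT non-RGCs it had 5, 2 and 9 reads, or 4.65, 2.01 and 9.86 normalized reads. In mKO non-RGCs it had 87, 83 and 66 reads, or 71.2, 83.3 and 96.9 normalized reads. Every mKO non-RGC library thus held more Thy1 than any WT non-RGC library, while both groups were far below any RGC library. The group means were 2342 ± 213 (SD, n = 3) in WT RGCs, 1416 ± 14.5 (SD, n = 3) in mKO RGCs, 83.8 ± 12.8 (SD, n = 3) in mKO non-RGCs and 5.51 ± 4.0 (SD, n = 3) in WT non-RGCs.

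**Figure D1:**
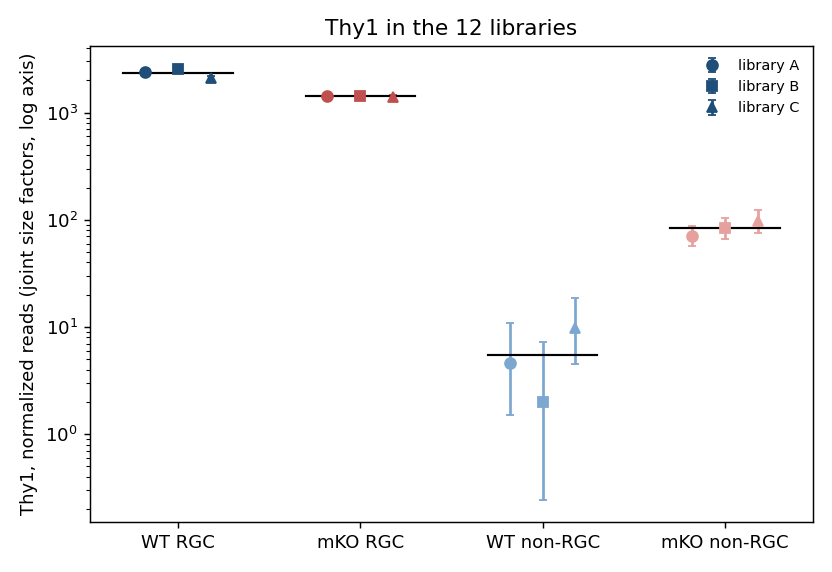
Normalized reads of Thy1 (joint size factors, log axis) in each of the 12 libraries. Points are libraries A (circle), B (square) and C (triangle) with exact 95% Poisson intervals of their reads, and black lines are group means. The WT non-RGC libraries, at 2.01 to 9.86, lie below the mKO non-RGC libraries, at 71.2 to 96.9, and both lie far below the RGC libraries.

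The order of the 4 groups was WT RGCs, mKO RGCs, mKO non-RGCs and WT non-RGCs, and no neighbours in it overlapped. The spread within WT non-RGCs was the widest relative to the mean (72.6%), and their 16 reads in all have an exact 95% Poisson interval of 9.15 to 26.0 reads, which like the other intervals covers counting error only. The SD of the 3 mKO RGC libraries was 14.5 normalized reads, 1.02% of their mean. It was less than the SD of 35.8 normalized reads that counting alone gives at that level. Per kilobase of annotated exon, Thy1 stood at 782 ± 71.1 normalized reads (SD, n = 3) in WT RGCs, where it was the gene of rank 301 of 21920 with reads, and at 473 ± 4.85 (SD, n = 3) in mKO RGCs, at rank 601 of 23884. In mKO non-RGCs it was at 28.0 ± 4.29 per kilobase (SD, n = 3), near the middle of the genes with reads (rank 11202 of 22681). In WT non-RGCs it was at 1.84 ± 1.33 per kilobase (SD, n = 3), at rank 16755 of 21379.

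The first question was how sharply the beads divided the antigen's own message between the fractions. In WT retinas the RGC over non-RGC log2 ratio of Thy1 was 8.68 ± 0.33 (SE), the highest of 16535 genes tested, and the ratio of the mean normalized reads was 425. Counting alone puts that ratio between 269 and 766 over all libraries, and WT non-RGC library B, with 2 reads, gives 1170 with a counting interval of 324 to 9659. In mKO retinas the log2 ratio was 4.07 ± 0.33 (SE), a ratio of the means of 16.9, at rank 210 from the highest. Both SEs rest on a spread shared by all 12 libraries and are not each genotype's own. The pooled SD between libraries was 0.66 on the log2 scale for the WT fractions and 0.16 for the mKO fractions. All 3 RGC libraries were above all 3 non-RGC libraries in both genotypes, as were those of 29.4% of genes in WT and 33.8% in mKO. The log2 ratio was lower in mKO by 4.61 (difference -4.61 ± 0.47, SE), the lowest of all 16535 genes. Thy1 kept that rank under every one of the 18 other settings tried. These settings reuse the same libraries and Thy1 was chosen with these levels known, so the rank is only a description. Without the WT libraries C of both fractions, an alternative chosen after seeing the data, the difference was -5.14. As in any bulk measurement, fewer RGCs in a fraction and less Thy1 RNA per RGC cannot be told apart.

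Expressed as what remained outside the captured fraction, the level of Thy1 in WT non-RGCs was 0.235% of its mean in WT RGCs (0.0856% to 0.421% over the 3 libraries), and in mKO non-RGCs it was 5.92% of its mean in mKO RGCs (5.03% to 6.84%). The 2 ranges were far apart. For comparison, 18 genes known to mark RGCs or their subtypes, Thy1 not among them, were taken through the same calculation. In WT each of the 18 markers had a higher remaining share than Thy1, from 0.702% for Pou4f3 to 167% for Jam2, with a median of 9.38%. In mKO 3 of the 18 markers, Tbr1, Pou4f3 and Slc17a6, had a lower remaining share than Thy1, and the median was 32.8%. The share was higher in mKO than in WT for 17 of the 18 markers, by a median factor of 1.97 and at most 6.95 (Pou4f3), against 25.2 for Thy1. Among these, the library ranges of WT and mKO overlapped for Tubb3, Ebf3, Eomes, Tbr1 and Opn4. As background, the RGC over non-RGC log2 ratio differed between mKO and WT by a median of -0.02 over all genes, and by -0.95 over the 18 markers. The one marker with a lower share in mKO was Jam2, a junctional adhesion molecule of one RGC subtype, which at P0 was higher in non-RGCs than in RGCs and so did not mark the captured cells.

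By the share remaining in WT, the 3 POU-domain factors that drive RGC differentiation lay nearest to Thy1 among the markers. By the share in mKO, Slc17a6 and then Opn4 lay nearest. Pou4f1 remained at 1.90% in WT and 7.50% in mKO, Pou4f2 at 1.94% and 8.63%, and Pou4f3 at 0.702% and 4.88%. Slc17a6, the vesicular glutamate transporter of RGCs, remained at 2.06% and 5.39%. Sncg, gamma-synuclein, remained at 8.07% in WT and 38.0% in mKO, and the light neurofilament gene Nefl at 10.3% and 28.6%. Tbr1, a factor of a subset of RGCs, went from 3.24% to 3.99%, and Opn4, the melanopsin of intrinsically photosensitive RGCs, went from 3.65% to 6.83%, and the library ranges of WT and mKO overlapped for both. Taken as a difference, mKO non-RGCs held more Thy1 than WT non-RGCs by 5.53% of the mKO RGC level, beside 4.58% for Pou4f1, 6.0% for Pou4f2, 4.05% for Pou4f3 and 7.06% for Rbpms, an RNA-binding protein found in nearly all RGCs. On that measure Thy1 lay within the range of the markers, which ran from -32.4% for Jam2 to 26.0% for Sncg.

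**Figure D2:**
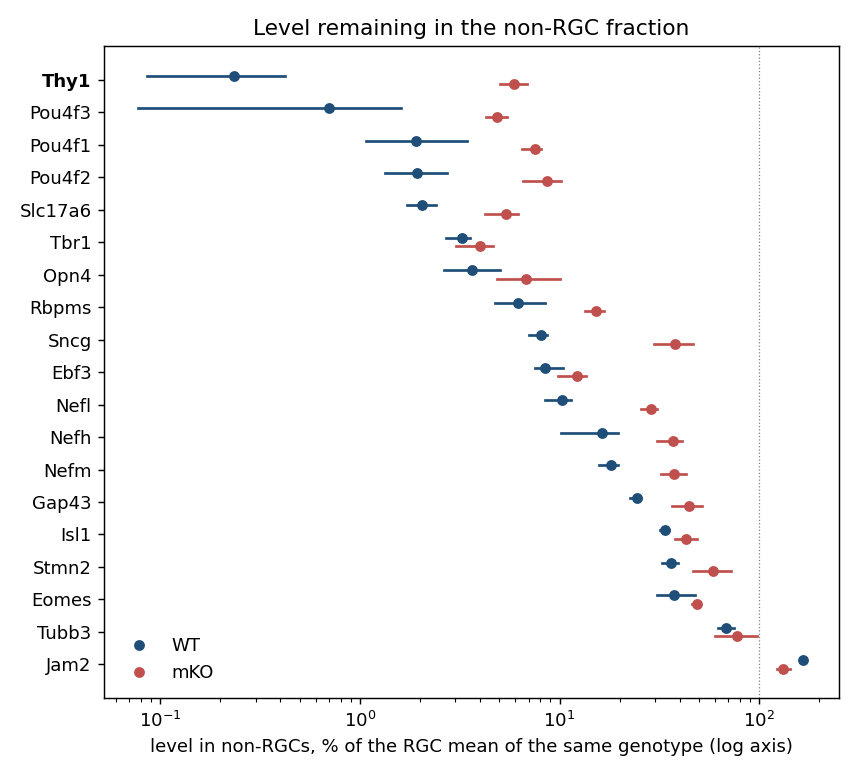
Level in non-RGCs as a percentage of the mean in RGCs of the same genotype (log axis) for Thy1 and 18 RGC markers, WT in blue and mKO in red. Dots are ratios of group means, lines span the 3 non-RGC libraries, and the dotted line marks 100%. Thy1 has the lowest share in WT (0.235%) and the widest step to mKO (5.92%).

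The RGC markers were then tested with limma, with p-values adjusted over all genes tested. In WT, 17 of the 18 were higher in RGCs than in non-RGCs and Jam2 was lower (26.4% and 22.6% of all genes tested were called higher and lower), with a median log2 ratio of 3.43 against -0.03 over all genes. In mKO the calls were again 17 higher and Jam2 lower (29.1% and 25.3% of all genes), and the median log2 ratio was 1.62. With total-read scaling the balance over all genes in mKO turned to 4231 higher and 5663 lower, with 16 markers higher and 1 lower. The ratio itself differed between the genotypes for 4 of the 18, Sncg, Pou4f2, Nefl and Nefm, all lower in mKO (0% of all genes were called higher in mKO and 0.0968% lower). By an unadjusted p-value under 0.05 with a fold change of at least 1.5 in its place (the fold rule), 0 of the 18 were higher and 11 lower, while 488 of all genes were higher and 320 lower. Sncg fell from a log2 ratio of 3.63 to 1.42 (difference -2.21 ± 0.21, SE, adjusted p = 0.00084), Pou4f2 from 5.71 to 3.55 (-2.16 ± 0.32, adjusted p = 0.018), Nefl from 3.29 to 1.81 (-1.48 ± 0.16, adjusted p = 0.0019) and Nefm, the medium neurofilament gene, from 2.47 to 1.43 (-1.05 ± 0.16, adjusted p = 0.027). Leaving out 1 library left 2 to 7 of the 18 called, all lower in mKO, although without mKO non-RGC library A the calls over all genes were 105 higher and 35 lower. The count was 2 without any one of the mKO RGC libraries, without WT RGC library A or B, without mKO non-RGC library B or without WT non-RGC library A, and 7 without mKO non-RGC library A or WT non-RGC library C. Thy1 was further from the line of equal ratios than any marker.

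**Figure D3:**
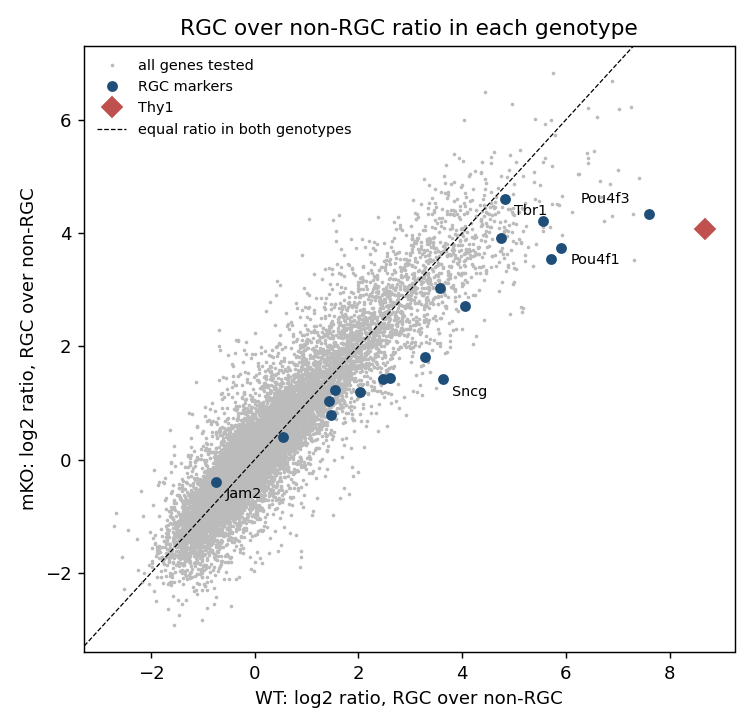
The log2 ratio of RGCs over non-RGCs in WT (horizontal) and mKO (vertical) for 16535 genes in grey, 18 RGC markers in blue and Thy1 as a red diamond. The dashed line marks equal ratios. Thy1 lies at 8.68 in WT and 4.07 in mKO, farthest to the right of all genes.

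The second question was how Thy1 differed between the genotypes within each fraction, where the size factors were the authors' own. In RGCs the means were 1424 ± 2.29 normalized reads in mKO and 2374 ± 156 in WT (SD, n = 3 each), a log2 ratio of -0.73 ± 0.06 (SE). Thy1 was in the lowest 3.31% of 16085 genes by this ratio, at rank 533 from the lowest. Its groups did not overlap, as was so in the same direction for 28.2% of all genes. By RT-PCR of RGCs from mKO pups and littermate controls, the paper reported no significant difference for Thy1. In non-RGCs the means were 79.9 ± 13.1 in mKO and 5.28 ± 3.78 in WT (SD, n = 3 each), a log2 ratio of 3.86 ± 0.46 (SE) and a ratio of the means of 15.2. The pooled reads, 236 against 16, give that ratio a counting interval of 9.16 to 27.0. By its log2 ratio Thy1 was at rank 3 from the highest of 15326 genes, and 17.5% of all genes had no overlap in that direction. Leaving out each library in turn gave -0.79 to -0.69 in RGCs and 3.41 to 4.32 in non-RGCs.

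The base composition of a gene moved with its mKO over WT ratio in RGCs. The 12239 genes averaging 50 or more normalized reads were put into 5 bins of rising GC content, and bin 1 had a median log2 ratio of 0.35 and bin 5 of -0.45 (Spearman's rho = -0.72 over genes, which are no replicates). Thy1 belongs to bin 4 (51.3% to 55.3% GC), whose median was -0.24, and 2.0% of the 2448 genes in it had a lower ratio. With the GC trend of each library removed, the log2 ratio of Thy1 in RGCs was -0.41 ± 0.07 (SE), and with the trends for GC content and reads per base both removed it was -0.25 ± 0.06 (SE), both nearer to 0 than -0.73. The same removals gave 4.10 ± 0.46 and 4.01 ± 0.50 (SE) in non-RGCs. Removal of duplicate reads before counting caps a gene at its number of start positions. Thy1 had 0.632 to 0.789 reads per exon base in WT RGCs, 0.505 to 0.545 in mKO RGCs and at most 0.0290 in any non-RGC library. These values are over all 2995 annotated exon bases, and would be higher over the 1735 bases of the reference transcript. The part of this cap in the ratios of Thy1 was not tested.

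**Figure D4:**
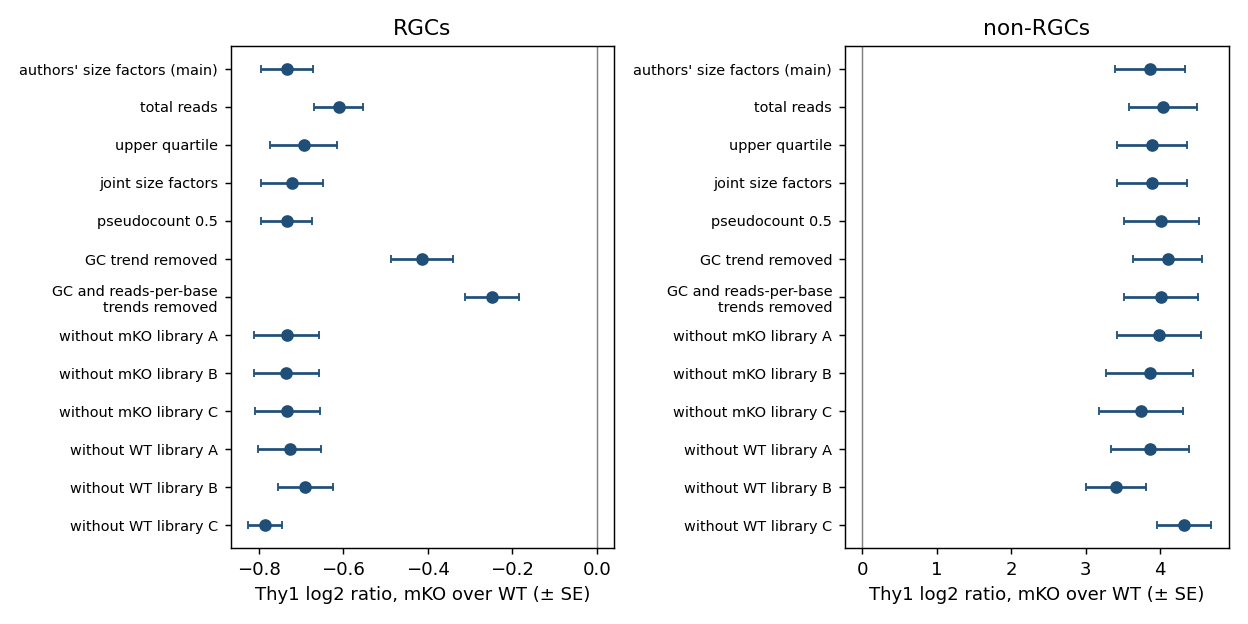
The mKO over WT log2 ratio of Thy1 (± SE) in RGCs (left) and non-RGCs (right) under each normalization and trend removal and without each library in turn, with a grey line at 0. In RGCs it runs from -0.79 without WT library C to -0.25 with both trends removed, and in non-RGCs from 3.41 to 4.32.

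Set beside the RGC markers, Thy1 moved in the same direction as their median in both fractions and further. In RGCs, 10 of the 18 markers fell in mKO and 0 rose (21.2% and 16.3% of all genes were called lower and higher), with a median log2 ratio of -0.42 against 0.00 over all genes. The largest falls were of Tubb3, the neuronal beta-tubulin gene, at -0.68 ± 0.06 (SE, adjusted p = 0.00065) and Pou4f1 at -0.63 ± 0.05 (SE, adjusted p = 0.00065), smaller than the -0.73 of Thy1. With total-read scaling, which moved the median of all genes to 0.12, 3845 genes were higher and 2237 lower, and the markers again 0 and 10. By the fold rule 1614 genes were higher and 1001 lower, and the markers 0 and 2. With GC content and reads per base removed 2 of the 18 were called and the median of the 18 was -0.06. In non-RGCs, 9 of the 18 rose and 0 fell (4.18% and 6.43% of all genes were called higher and lower), with a median of 0.47. At an unadjusted limma p under 0.05, 9 were higher and 2 lower. The 2 were Tubb3, at -0.53 ± 0.18 (SE, adjusted p = 0.079), and Jam2, at -0.33 ± 0.11 (SE, adjusted p = 0.075), so Tubb3 fell in both fractions. With total-read scaling, which moved the median of all genes to 0.15, 1359 genes were higher and 452 lower against 641 and 985 with the authors' size factors, and by the fold rule 1362 and 1040, while under both 9 markers were higher and 0 lower. With GC trends removed 126 genes were higher and 85 lower. Pou4f3 rose by 3.02 ± 0.71 on the log2 scale (SE, adjusted p = 0.029), Pou4f2 by 1.72 ± 0.30 (adjusted p = 0.012), Sncg by 1.63 ± 0.22 (adjusted p = 0.0062) and Pou4f1 by 1.54 ± 0.39 (adjusted p = 0.038). The count of 9 in non-RGCs depended on the libraries and was 5 without WT non-RGC library A, 3 without B, 4 without mKO non-RGC library A, 1 without B and 5 without C.

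Within each library, Thy1 can be read relative to the 17 markers that were higher in RGCs, as its log2 level minus the mean of theirs. This relative level was 0.19 ± 0.07 in WT RGCs and -0.18 ± 0.03 in mKO RGCs, and -4.90 ± 0.73 in WT non-RGCs and -1.85 ± 0.22 in mKO non-RGCs (SD, n = 3 each). Thy1 was therefore lower in mKO RGCs by 0.37 on the log2 scale, and higher in mKO non-RGCs by 3.05, when the markers were the reference. The mean log2 level of the 17 markers was 11 ± 0.19 in WT RGCs, 10.65 ± 0.02 in mKO RGCs, 7.41 ± 0.20 in WT non-RGCs and 8.25 ± 0.06 in mKO non-RGCs (SD, n = 3 each). The gap between the fractions was thus narrower in mKO for the markers, and narrower by more for Thy1. The 17 differed in how far they marked RGCs. In WT non-RGCs they remained at shares from 0.702% for Pou4f3 up to 36.1% for Stmn2, 37.3% for Eomes and 68.3% for Tubb3. How far this lessened the change of their mean was not tested.

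Genes with a profile like that of Thy1 over the 12 libraries included 3 of the RGC markers, Sncg, Pou4f3 and Pou4f2. The 12 libraries form 4 groups in 2 fractions, so a correlation over them mostly reads those groups and is given as a description. Of 12810 other genes with a mean of at least 50, 573 had Pearson's r above 0.9, and the median was -0.14. The 10 highest were Sncg (r = 0.992), the long noncoding RNA D930028M14Rik (0.992), Pou4f3 (0.990), Irx4 (0.989), Ebf1 (0.987), RP24-312G4.2 (0.986), Pou4f2 (0.986), Gpr149 (0.985), Adcyap1 (0.985) and Ramp3 (0.982). By the size of the steps as well as their shape, the nearest was Pou4f3, with a root mean square difference of 0.54 between the centred log2 profiles, followed by Irx4 (0.66), RP24-312G4.2 (0.69), Adcyap1 (0.78) and Mstn (0.91).

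Irx4, an Iroquois homeobox factor, averaged 1888 and 1254 normalized reads in WT and mKO RGCs and 11.8 and 62.5 in WT and mKO non-RGCs. Adcyap1, which encodes the neuropeptide PACAP, averaged 555 and 536 in the RGCs and 3.93 and 26.5 in the non-RGCs, and Mstn, which encodes myostatin, averaged 1366 and 1518 in the RGCs and 12.5 and 64.7 in the non-RGCs. None of these was as low as Thy1 in WT non-RGCs relative to WT RGCs, at shares of 0.623%, 0.709% and 0.912%.

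**Figure D5:**
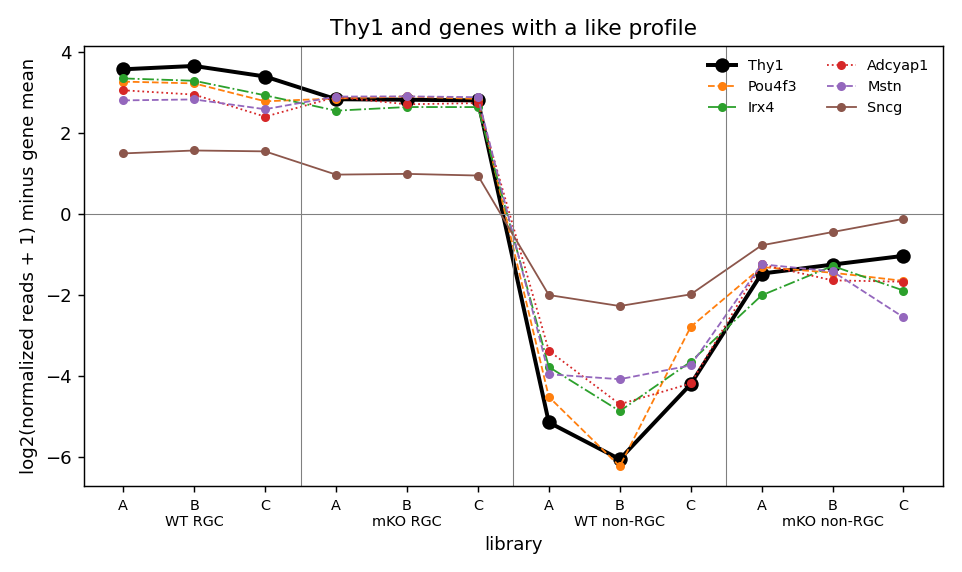
Level of Thy1 (black) and of Pou4f3, Irx4, Adcyap1, Mstn and Sncg, as log2(normalized reads + 1) minus the mean of the gene, over the 12 libraries in 4 groups. Thy1 has the highest values in WT RGCs of these genes, and it falls steeply to WT non-RGCs and less so to mKO non-RGCs, as do the others.

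The other cells that can carry Thy-1 were looked for through their own genes. Of 8 T cell genes, the defining Cd3e, Cd3d, Cd3g and Cd2 were at 0 in all non-RGC libraries and at most 1.75 normalized reads in any RGC library, and the summed level of the 8 was 260 to 291 in WT RGCs, 271 to 383 in mKO RGCs, 67.9 to 73.4 in WT non-RGCs and 78.6 to 82.3 in mKO non-RGCs. Most of it in RGCs was Lck, a Src-family kinase, at 158 to 200 in WT RGCs and 178 to 210 in mKO RGCs, and Ptprc, the pan-leukocyte antigen. Of the 4 T cell genes that passed the filter in the fraction fits, 2 were called higher and 1 lower in WT RGCs than non-RGCs and 2 higher in mKO, and 0 were called between the genotypes in either fraction (at an unadjusted limma p under 0.05, 0 in RGCs and 1 in non-RGCs). The 6 fibroblast genes, collagens among them, varied by library, from 410 to 16161 in WT RGCs, 704 to 7091 in mKO RGCs, 500 to 7189 in WT non-RGCs and 417 to 872 in mKO non-RGCs, with 1 called lower in mKO RGCs, 0 in non-RGCs, 0 between the WT fractions and 1 lower in mKO RGCs than mKO non-RGCs. The WT non-RGC library with the most of them, B, was the one with 2 reads of Thy1. In WT RGCs library B had the most of them (16161) and the most Thy1 (2529), and library C the least of both (410 and 2110). In mKO RGCs library A had the most of both, and in mKO non-RGCs library C had the least of them and the most Thy1. Within WT non-RGCs and within each mKO group the Poisson intervals of Thy1 overlapped between libraries, so its reads do not settle their order. The part of fibroblasts in the Thy1 values was not tested. Mural and endothelial genes summed to 3964 to 5272 and 3463 to 4453 in WT and mKO RGCs, and to 6753 to 7176 and 5303 to 6063 in WT and mKO non-RGCs, with 0 of those tested called between the genotypes in either fraction (at an unadjusted p under 0.05, 0 in RGCs and 3 lower in mKO non-RGCs). Over all genes 26.4% were called higher and 22.6% lower in RGCs than non-RGCs in WT, and 29.1% and 25.3% in mKO. Between the genotypes 16.3% were higher and 21.2% lower in mKO RGCs, and 4.18% and 6.43% in mKO non-RGCs. Although the sum of the 8 mural and endothelial genes was lower in RGCs, their median log2 ratio over non-RGCs was 0.88 in WT and 2.14 in mKO. Without 1 library it was 0.31 to 1.48 in WT. For the 6 fibroblast genes the median was 1.36 in WT and 2.22 in mKO, and 0.01 to 3.33 in WT without 1 library. In RGCs against non-RGCs, 3 of the 8 mural and endothelial genes were called higher and 2 lower in WT, and 4 higher and 2 lower in mKO. The lower calls were near the shares over all genes. The WT calls were 1 higher without WT RGC library A or B or WT non-RGC library A or C, and 3 were lower in mKO non-RGCs without WT non-RGC library C.

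Neither fraction was pure by its markers. Of 11 photoreceptor genes 9 were lower in RGCs than non-RGCs in each genotype. Of 11 amacrine and horizontal genes 10 were lower and 1 higher in each, and of 13 progenitor and cycling genes 12 were lower. Over all genes 26.4% were called higher and 22.6% lower in RGCs than non-RGCs in WT, and 29.1% and 25.3% in mKO. The median log2 ratios of these lists in WT were only -1.0, -1.16 and -0.88, in that order. The summed photoreceptor genes reached 7299 to 10134 normalized reads in WT RGCs against 14988 to 17245 in WT non-RGCs. Of the 7 astrocyte and Müller glia genes tested 2 were lower in WT RGCs and 3 in mKO RGCs, the WT count being near the share over all genes. All 6 microglia genes were higher in RGCs than in non-RGCs in both genotypes, with median log2 ratios of 4.94 in WT and 3.57 in mKO, and 3.62 in WT without WT non-RGC library C, in which they summed to 20.8 normalized reads against 252 and 279 in the other 2. Between the genotypes, RGCs of mKO had lower levels of 6 of 11 photoreceptor, 4 of 11 amacrine and horizontal, 5 of 13 progenitor and 2 of 7 glial genes (21.2% of all genes were called lower, a share the glial count is near), 1 amacrine and horizontal gene was higher (16.3% of all genes) and 0 of 6 microglia genes were called, with 4 lower at an unadjusted p under 0.05. In non-RGCs 5 photoreceptor, 2 amacrine and horizontal, 2 progenitor and 1 glial genes were lower in mKO and 0 of them higher (6.43% and 4.18% of all genes). These counts depended on single libraries. In RGCs the progenitor genes called lower were 2 without mKO library A or C, 3 without B and 8 without WT library C, the photoreceptor genes 3 without mKO library C, and the microglia genes 3 without mKO library A and 2 without WT library A. In non-RGCs 0 photoreceptor, amacrine and progenitor genes were called without mKO library B or WT library B. Blood genes were higher in mKO for 5 of the 6 tested in each fraction, and 5 were lower in mKO RGCs than mKO non-RGCs, against 0 called between the WT fractions. The rise in non-RGCs was called for 2 without mKO non-RGC library B, and the fall between the mKO fractions for 3 without mKO RGC library A or B or mKO non-RGC library C. The part of these cells in the Thy1 values was not tested.

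Thy-1 shares its GPI anchor with many neuronal surface proteins, and 42 of those were examined. In WT, 27 of the 42 were higher in RGCs than non-RGCs and 5 lower (26.4% and 22.6% of all genes), with a median log2 ratio of 0.75, and in mKO 26 were higher and 5 lower (29.1% and 25.3% of all genes), with a median of 0.70. The member nearest to Thy1 was Nrn1, neuritin, which promotes neurite growth, with log2 ratios of 6.74 ± 0.34 in WT and 4.22 ± 0.34 in mKO (SE, adjusted p = 1e-08 and 6.6e-07). Nrn1 had 1237, 1243 and 1082 normalized reads in WT RGCs and 1003, 1028 and 997 in mKO RGCs. In non-RGCs it had 13.9, 16 and 4.38 in WT and 60.6, 63.2 and 39.6 in mKO. It was, like Thy1, lower in every mKO RGC library and higher in every mKO non-RGC library than in any WT library of that fraction. The same was so for 28.2% of all genes in RGCs and, in its direction, 17.5% in non-RGCs. The mKO over WT log2 ratios of Nrn1 were -0.24 ± 0.06 in RGCs (SE, adjusted p = 0.017) and 2.27 ± 0.47 in non-RGCs (SE, adjusted p = 0.021). Opcml, Ntng1 and Cntn2, adhesion molecules of the same anchor class, had WT log2 ratios of 3.79, 3.66 and 3.33 and mKO ratios of 3.61, 3.74 and 3.24. In the limma test of a difference in this ratio between the genotypes 0 of the 42 passed, Nrn1 included, and 2 were higher and 2 lower in mKO at an unadjusted p under 0.05. Gfra1, a GDNF co-receptor, and the glypican genes Gpc4 and Gpc3 were lower in RGCs of both genotypes.

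Between the genotypes, 5 of the 42 rose and 17 fell in mKO RGCs (median -0.19), and 2 rose and 7 fell in mKO non-RGCs (median -0.22). Over all genes 16.3% rose and 21.2% fell in RGCs, and 4.18% and 6.43% in non-RGCs, so the rises among the 42 were near the background. With total-read scaling 7 rose and 15 fell in RGCs, and 2 rose and 2 fell in non-RGCs. In RGCs the largest falls were of Rtn4rl2, a Nogo receptor homologue, at -0.95 ± 0.14 (SE, adjusted p = 0.0027) and Ly6h at -0.95 ± 0.06 (SE, adjusted p = 0.00064), and the largest rises of Cntn3, a contactin, at 1.04 ± 0.16 (SE, adjusted p = 0.0028) and Cd59a at 0.76 ± 0.11 (SE, adjusted p = 0.0028). In non-RGCs the 2 that rose were Nrn1 and Cd59a, an inhibitor of complement, which rose by 1.44 ± 0.23 (SE, adjusted p = 0.0087). The falls in RGCs were 12 to 22 when 1 library was left out and 1 with GC content and reads per base removed. Those in non-RGCs were 3 without WT non-RGC library A and 1 without library B or without mKO non-RGC library B. The rises in non-RGCs were 0 without mKO non-RGC library B, and those in RGCs were 3 without mKO RGC library A or C.

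The 29 genes that build and attach GPI anchors were spread over both fractions. In WT 4 were higher in RGCs and 3 lower (median 0.03, with 26.4% and 22.6% of all genes called), and in mKO 7 were higher and 3 lower (median -0.02, with 29.1% and 25.3% of all genes), so that the calls were no more frequent than over all genes. Mppe1 and Pigk, a subunit of the transamidase that attaches the anchor, had log2 ratios of 1.37 and 1.06 in WT. Piga, which acts in the first step of anchor synthesis, was lower in RGCs in both genotypes, at -0.97 ± 0.19 (SE, adjusted p = 0.00091) in WT. In mKO RGCs 8 of the 29 rose and 7 fell against WT (median 0.07, with 16.3% and 21.2% of all genes called), and with total-read scaling 9 rose and 4 fell. The falls were near the background. The largest changes included Pgap1, which remodels the finished anchor, rising by 0.76 ± 0.11 (SE, adjusted p = 0.0024) and Pigt, another transamidase subunit, at -0.69 ± 0.05 (SE, adjusted p = 0.00064). In non-RGCs 0 rose and 1, Pigo, fell (4.18% and 6.43% of all genes). With GC content and reads per base removed, 0 of the 29 were called between the genotypes in either fraction. Between the WT fractions 2 were higher without WT RGC library A or B or WT non-RGC library B, and 5 were lower without WT or mKO non-RGC library C, as were 5 between the mKO fractions without mKO non-RGC library A. In mKO RGCs 4 rose without mKO library C and 4 fell without A, and the call in non-RGCs was kept in number only without mKO library C.

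Of 12 raft-associated signalling partners, 6 were higher in WT RGCs than in WT non-RGCs and 1 lower (median 0.37, with 26.4% and 22.6% of all genes called), and 7 were higher and 1 lower in mKO (median 0.33, with 29.1% and 25.3% of all genes). Lck had the largest ratio, with log2 values of 3.45 ± 0.19 (SE, adjusted p = 2.2e-08) in WT and 2.49 ± 0.19 (SE, adjusted p = 4.3e-07) in mKO. Fyn, the kinase most tied to Thy-1 in neurons, was the most abundant of those higher in RGCs, averaging 2985 normalized reads in WT RGCs and 2032 in WT non-RGCs (log2 ratio 0.57 ± 0.11, SE, adjusted p = 0.00097). Flot1 and Flot2, the flotillins of raft membranes, had WT log2 ratios of 1.08 and 0.46. The one lower member was Dok1, at -0.89 in WT. In mKO RGCs 6 of the 12 fell and 2 rose against WT (median -0.35), where 21.2% of all genes fell and 16.3% rose, a share near that of the 2 rises. Among the falls were Csk, which inhibits Src-family kinases, at -0.60 ± 0.05 (SE, adjusted p = 0.00064) and Src at -0.55 ± 0.06 (SE, adjusted p = 0.00082), and 0 were called with GC content and reads per base removed. The rises were of Yes1 and Pag1, and 1 rise was left without any one of the mKO RGC libraries or without WT RGC library A. In non-RGCs Src and Csk fell and 0 rose (6.43% and 4.18% of all genes), with both calls lost without WT non-RGC library B or mKO non-RGC library B, and 1 left without WT non-RGC library A or C or mKO non-RGC library A.

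Of 10 counter-receptor genes of Thy-1 tested, 4 were higher in WT RGCs than non-RGCs and 3 lower (median 0.07, with 26.4% and 22.6% of all genes called), and 4 were higher and 2 lower in mKO (median 0.07, with 29.1% and 25.3% of all genes). With total-read scaling 3 were higher and 4 lower in WT and 4 and 4 in mKO, so as a list they stood near the background. The higher ones were the integrin genes Itgb2, Itgam and Itgax, at log2 ratios of 4.25, 4.09 and 3.27 in WT, and Itgb3 at 1.33, of which the first 3 are leukocyte integrins that microglia carry, and the microglia genes had a median of 4.94. Lower were Sdc4, syndecan-4, at -1.15 ± 0.19 (SE, adjusted p = 0.0003), and the integrin genes Itgb5 at -0.76 ± 0.16 (SE, adjusted p = 0.0019) and Itgav at -0.72 ± 0.24 (SE, adjusted p = 0.026) in WT. Leaving out 1 library gave 3 or 4 higher and 2 to 4 lower, with 4 lower in mKO without WT non-RGC library C. Between the genotypes limma called 0 of 10 in RGCs and 0 of 8 in non-RGCs, with 1 lower in mKO in each fraction at an unadjusted p under 0.05.

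The genes next to Thy1 on chromosome 9 had none of its contrast between the fractions. The nearest annotated coding genes before it are Nectin1 (listed as Pvrl1), 235923 bases away, Trim29 and Oaf, and those after it are Gm49380, 17748 bases away, Usp2 and Rnf26. Nectin1 averaged 2635 and 1834 normalized reads in WT and mKO RGCs and 2428 and 1730 in WT and mKO non-RGCs, with log2 ratios between the genotypes of -0.53 in RGCs and -0.50 in non-RGCs (limma adjusted p = 0.0013 and 0.021). Usp2 was lower in RGCs than in non-RGCs in both genotypes, at -0.82 and -0.89 (adjusted p = 0.0069 and 0.0038), as was Rnf26 at -0.76 and -0.56 (adjusted p = 0.011 and 0.042). Oaf was at -0.82 in WT (adjusted p = 0.097) and at -1.61 in mKO (adjusted p = 0.0035). Trim29 averaged below 10 in all 4 groups and was not tested, and Gm49380 was not matched to a gene of the tables.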

How the data were processed

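Per the labels and the study's methods, poly-A RNA of RGC and non-RGC fractions of P0 retinas was sequenced as single 75-base reads, 12 libraries in all. Per the submitters' processing notes reads were aligned to mm10 with STAR 2.3.1z4 and counted with featureCounts, and the table names state primary alignments with duplicates removed. The authors deposited 2 tables of signal values, each the mean over 3 libraries of gene counts divided by DESeq size factors. Their remaining columns hold the overall mean and the authors' fold change, log2 fold change, p-value and adjusted p-value, and were not used. Per-sample columns left unused numbered 0.

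Each deposited mean is a sum of 3 whole read numbers, each divided by 3 times a size factor, so the reads of the libraries were recovered, with exactly 1 solution for 100% of genes with reads. On simulated means 3840 of 3840, 3852 of 3852, 3841 of 3841 and 3854 of 3854 genes came back. Because these reads are derived from means, no count model was used. Within a table the recovered reads were divided by the authors' size factors, and between the tables, which the authors normalized separately, by median-of-ratios factors over all 12 libraries. Values as log2(value + 1), which understates changes of genes with few reads, were fitted with limma 3.58.1 (R 4.3.3, mean-variance trend, Benjamini-Hochberg adjusted p under 0.05) with genes kept where a group averaged 10 or more. In simulated RGC libraries with 200 changed genes 199 were called, with 15 false calls among the rest of 15864. Unlike the real ones, these libraries had the same dispersion for all genes and no outlying library or GC trend. Their counts therefore check the fit and not the real calls. The fits between the fractions shared 1 estimate of the spread per gene over all 12 libraries, so their SEs are not each genotype's own. A single-gene exact permutation test of 3 against 3 cannot go below 0.1 and was not run.

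GENCODE M21 (GRCm38) gave positions and GC content for 35575 of the 38720 genes by symbol. Trends with GC content (lowess share 0.3) or with GC content and reads per base (300 neighbouring genes) were removed in alternatives. Other alternatives were joint, total-read and upper-quartile scaling, a pseudocount of 0.5, no filter or one at 50, a p-value under 0.05 with a fold change of at least 1.5, and leaving out each library. Thy1 and the lists of cell markers, Thy-1 receptors, raft partners, GPI anchor genes and GPI-anchored proteins were chosen with earlier results of these data known. Beside Thy1, the text names up to 4 members of a list with the largest called changes in each direction and members whose role it describes, the 10 genes most correlated with Thy1 and the 5 with the smallest root mean square difference, and 3 neighbours on each side. Samples were grouped by their labels. A gene among those whose ratio differed between the genotypes is not reported here.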

Additional observations from a re-analysis of the deposited data

Results flagged for a closer look

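For 4 of the 18 RGC markers the RGC over non-RGC log2 ratio differed between the genotypes by the limma test of the difference itself, each being lower in mKO. The difference was -2.21 for Sncg (adjusted p = 0.00084), -2.16 for Pou4f2 (adjusted p = 0.018), -1.48 for Nefl (adjusted p = 0.0019) and -1.05 for Nefm (adjusted p = 0.027). Without 1 library in turn, the adjusted p reached at most 0.0067 for Sncg and 0.014 for Nefl, and up to 0.087 for Pou4f2 and 0.14 for Nefm, whose calls were each lost in 7 of the 12 cases. Groups of 3 libraries were too small for a test of single outlying libraries.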

How the results depend on the processing

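All 5 Thy1 ratios kept their direction under every alternative. In RGCs the log2 ratio of mKO over WT moved by more than the spread between libraries with total-read scaling (-0.61), with GC trends removed (-0.41) and with GC and reads-per-base trends removed (-0.25), and without 1 library it was -0.79 to -0.69. Without 1 library it was 3.41 to 4.32 in non-RGCs, 8.21 to 9.14 for the WT fractions, 3.96 to 4.18 for the mKO fractions and -5.07 to -4.14 for their difference, which was -5.14 without both WT libraries C. Counts of called genes depended on the processing. In RGCs 6027 genes were called, against 2615 by the fold rule, 2095 with GC trends removed, 954 with both trends removed and 3770 to 8184 without 1 library, where 3822 were left without mKO library A and 3770 without C. In non-RGCs 1626 were called, against 211 and 246 with the trends removed and 141 to 1614 without 1 library, where 141 were left without mKO library B, 819 without WT library A and 387 without WT library B. For the difference 16 of all genes fitted were called (0 higher, 16 lower), against 808 by the fold rule (488 higher, 320 lower), 26 with total reads, 43 without both WT libraries C and 7 to 140 without 1 library, the 140 (105 higher, 35 lower) without mKO non-RGC library A. Counts between the fractions were 6458 to 8830 in WT and 7404 to 9815 in mKO without 1 library. Of 1551 values of 81 called results of named genes, 114 lost the call and 2 changed sign, Flot1 (0.039) and Nefm (0.026) in RGCs with both trends removed. The causes were not tested. No paired analysis was possible because the deposited means carry no replicate number, so RGC and non-RGC libraries could not be matched. Thy1 in WT non-RGCs rests on 2 to 9 reads per library, which limits its ratios more than the choice of scaling does.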

Other observations

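Among the genes other than Thy1, whose own ratio is given without a test, 15 differed between the genotypes in their RGC over non-RGC log2 ratio (limma adjusted p under 0.05), all 15 lower in mKO. Over all genes the balance turned to 105 higher and 35 lower without mKO non-RGC library A, and to 488 higher and 320 lower by the fold rule. The genes named here are neither RGC markers nor among the 10 most like Thy1 and were chosen after their values were seen. Rbpms2, an RNA-binding protein of RGCs, went from 3.89 in WT to 2.66 in mKO. Rgs4, a regulator of G-protein signalling, went from 4.33 to 3.00, Syt4, a synaptotagmin, from 3.38 to 2.13, and Nell2, a secreted glycoprotein of neurons, from 3.58 to 2.51. The Iroquois gene Irx2 went from 5.55 to 4.04 and the gene listed as KCTD12 from 4.12 to 2.87.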
